A study of Mus musculus with 6 samples.

Results

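Alpha and beta tubulin are the building blocks of microtubules. The 10 tubulin isotype genes described here, 5 alpha (Tuba1a, Tuba1b, Tuba1c, Tuba4a, Tuba8) and 5 beta (Tubb2a, Tubb2b, Tubb4b, Tubb5, Tubb6), were taken by Ensembl gene identifier from the 49315 genes counted in each library. The libraries were 6 RNA sequencing libraries of mouse gastrocnemius, a calf muscle, from animals of 3 months of age on a mixed C57BL/6 129 background. Of these, 3 were labelled WT and 3 carried a skeletal muscle knockout of Hnrnpu (mKO), the gene of the nuclear RNA-binding protein hnRNPU. The sources used here do not give the Cre driver, the exons removed, or whether a library was made from 1 animal. The p-values therefore reflect only how these libraries vary, which may be partly technical.

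One alpha and one beta chain form a dimer, and dimers assemble into the hollow microtubule. Many isotypes differ in the acidic carboxyl tail, which faces outward and carries most modifications: the last tyrosine of most alpha chains is removed by vasohibins and put back by tubulin tyrosine ligase, and chains of glutamate are added by the TTLL enzymes. In mature muscle fibres microtubules form a lattice under the membrane and around nuclei, they carry cargo, and they add stiffness. Tubb6 is known as a beta isotype of regenerating and dystrophic fibres. Tubulin mRNA is also under a feedback in which free dimers trigger its decay, through a factor (Ttc5) that reads the first residues as they leave the ribosome.

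The coding sequences show which members can be told apart by reads. The last 60 bases of the coding sequence (GRCm38, GENCODE M21) encode the carboxyl tail and are shown for 7 members because the tail carries most modifications; the capitals mark the last codon before the stop codon.
Tuba1c (chr15:99037950-99038009, plus strand): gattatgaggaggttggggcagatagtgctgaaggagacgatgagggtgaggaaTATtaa
Tuba4a (chr1:75215622-75215681, minus strand): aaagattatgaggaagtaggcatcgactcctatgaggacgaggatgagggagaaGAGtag
Tuba8 (chr6:121226020-121226079, plus strand): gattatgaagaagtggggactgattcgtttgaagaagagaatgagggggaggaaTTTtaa
Tubb2a (chr13:34074468-34074527, minus strand): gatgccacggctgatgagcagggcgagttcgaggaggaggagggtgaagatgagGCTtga
Tubb2b (chr13:34127471-34127530, minus strand): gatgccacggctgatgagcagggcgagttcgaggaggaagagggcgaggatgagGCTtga
Tubb4b (chr2:25222308-25222367, minus strand): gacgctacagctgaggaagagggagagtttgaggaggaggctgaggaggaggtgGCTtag
Tubb5 (chr17:35834982-35835041, minus strand): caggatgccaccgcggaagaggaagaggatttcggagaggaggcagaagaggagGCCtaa

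Tuba1c ends with the tyrosine codon TAT, whereas Tuba4a, the most abundant alpha member of these libraries, ends with the glutamate codon GAG and so encodes no terminal tyrosine. Tuba8 ends with the phenylalanine codon TTT. The tails of Tubb2a and Tubb2b differ at only 3 of 60 bases. At the other end, the first 12 bases hold the codons read in the mRNA feedback. They are shown for the leading alpha and beta member with the codons after the start codon in capitals.
Tuba4a start: atgCGCGAGTGC
Tubb4b start: atgAGGGAGATC
All 10 members have an arginine and a glutamate codon after the start codon, followed by a cysteine codon in the 5 alpha members and an isoleucine codon in the 5 beta members.

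Whole coding sequences of Tuba1a and Tuba1b were 98.3% identical, those of Tuba1b and Tuba1c 97.9%, and those of Tubb2a and Tubb2b 96.5%, while Tuba4a and Tuba8 shared 81.0% and Tubb5 and Tubb6 80.2%. Along the main transcript, the share of windows of 100 bases that also occur in a transcript of another gene was 73.0% for Tuba1b, 65.8% for Tuba1a and 53.4% for Tuba1c. It was 36.9% for Tubb2a, 27.7% for Tubb2b and 30.6% for Tubb4b, which shares them with its pseudogenes. For Tuba4a it was 46.7%, shared with Stk16, and for Tuba8 12.5%, shared with Gm15856. The pseudogenes Tubb4b-ps1 and Tubb4b-ps2 had 51 and 25 counts over all WT libraries and 75 and 39 over all mKO libraries. Tubb5 and Tubb6 shared none at that length, so their counts are the least exposed to reads of other copies. No source used here tells how multi-mapped reads were counted, so the split within the Tuba1 trio and within the Tubb2 pair is uncertain and their sums are given as well. The trio and the pair also share windows with genes outside these sums, which summing does not resolve. The Tuba4a exons overlap those of Stk16, a kinase gene on the opposite strand, and the named kit keeps no strand information. In the annotation Tuba1a and Tuba1b also overlap Gm49450 on their own strand, and Tuba1b overlaps Gm41396 on the opposite strand; neither was analysed here. On the opposite strand Tuba8 overlaps Gm15856, which had 0 counts in all 6 libraries, and Tubb4b overlaps Fam166a, which had 1 count over all WT libraries and 2 over all mKO libraries. Stk16 itself had 10.6 to 13.0 CPM (counts scaled to a common library size, as counts per 10 to the power of 6) in WT and 13.3 to 14.6 CPM in mKO, far below Tuba4a. How reads that fall on both genes were counted is not stated, so the Stk16 count does not show how the overlap affected Tuba4a. The level of Tuba4a per kilobase, the alpha shares and the beta to alpha ratio all carry this limit.

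Totals ranged from 32108684 to 42344238 counts, and each member had at least 44 counts in every library. All 10 passed the filter on low counts. Hnrnpu itself, counted over the whole gene, had 233, 235 and 247 CPM in WT and 209, 210 and 205 CPM in mKO (edgeR adjusted p = 0.147), and it was higher in mKO when scaled by library totals, so directions are those of the libraries as labelled. CPM values use library sizes scaled with TMM factors, which set the bulk of genes equal. The mKO and WT libraries differ in that bulk: scaling by library totals shifted log2 values upward, by 0.465 at the median, and the calls went from 3022 higher and 3144 lower to 8159 higher and 1124 lower.

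Several tubulin mRNAs were higher in mKO muscle, 4 of the 5 beta members and 2 of the 5 alpha members. Of the 10 members, 6 rose and none fell (edgeR quasi-likelihood test, Benjamini-Hochberg adjusted p at most 0.05 over all 16650 genes tested): Tuba1b, Tuba1c, Tubb2a, Tubb2b, Tubb5 and Tubb6. Over all tested genes 37.0% were called, 18.2% higher and 18.9% lower. The same 6 members had no overlap between the groups, while 49.3% of all tested genes had none (25.3% higher in mKO). The median log2 fold change was 0.37 for the alpha members and 0.95 for the beta members, beside 0.02 for all tested genes. The 6 rises kept their direction and their call with DESeq2, with library totals, without the low-count filter, in a fit blocked on replicate number, and when any 1 library was left out.

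**Figure D1:**
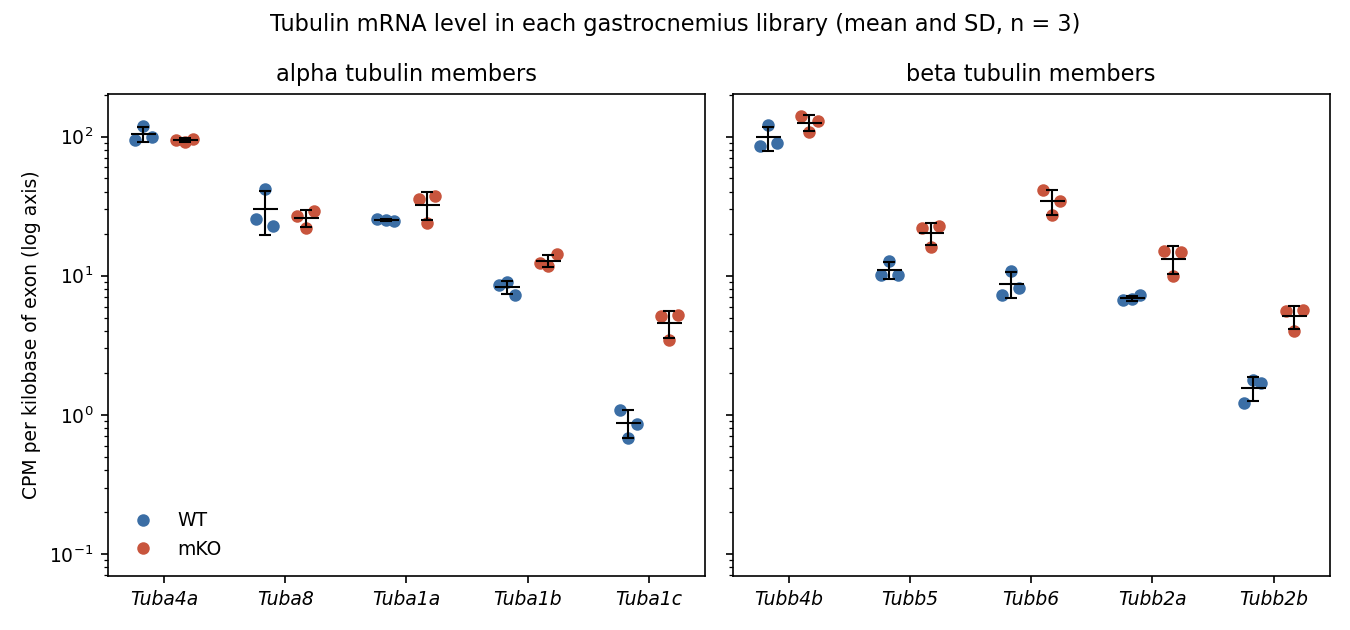
Level of each member as CPM per kilobase of exon (log axis) in 3 WT and 3 mKO libraries; points are libraries, bars the mean and SD. The mKO points lie above the WT points without overlap for Tuba1b, Tuba1c, Tubb2a, Tubb2b, Tubb5 and Tubb6, and overlap for the other 4.

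Levels of different genes are compared per kilobase of exon. In WT muscle Tuba4a (104 ± 12.7 CPM per kilobase, SD, n = 3) and Tubb4b (98.8 ± 19.3) led, with overlapping ranges. Tuba8 (30.0 ± 10.5), an alpha isotype of muscle, heart and testis, and Tuba1a (25.1 ± 0.467) came next, also overlapping. Tubb5 (11.0 ± 1.52), Tubb6 (8.76 ± 1.81), Tuba1b (8.24 ± 0.895) and Tubb2a (6.89 ± 0.303) followed, each overlapping the next in order. Tubb2b (1.56 ± 0.299) and Tuba1c (0.876 ± 0.200) were lowest and apart from their neighbours. In mKO muscle the order changed: Tubb4b (126 ± 16.1) lay above Tuba4a (94.3 ± 3.10) without overlap, and Tubb6 (34.3 ± 6.99) came next, overlapping Tuba1a (32.4 ± 7.26). Tuba8 (26.0 ± 3.66), Tubb5 (20.2 ± 3.68), Tubb2a (13.3 ± 2.95), Tuba1b (12.8 ± 1.35), Tubb2b (5.09 ± 0.942) and Tuba1c (4.59 ± 0.996) completed the order. Ranges also overlapped between Tuba1a and Tuba8, Tuba8 and Tubb5, Tubb2a and Tuba1b, and Tubb2b and Tuba1c.

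Among the beta members Tubb6 (chromosome 18, 67390717 to 67402748) changed most. In the order of replicates 1 to 3, WT libraries had 12.8, 18.9 and 14.4 CPM and mKO libraries 72.2, 47.7 and 60.7 CPM. Every mKO library was above every WT library, and mKO replicate 2 was the lowest of the 3. The rise was 3.91-fold (log2 1.97, SE 0.17, edgeR adjusted p = 4.31e-06). Tubb2b (chromosome 13, 34127008 to 34130354), a beta isotype best known from developing neurons, had 2.34, 3.40 and 3.24 CPM in WT and 10.7, 7.70 and 10.9 CPM in mKO. This was a 3.26-fold rise from a low level (log2 1.70, SE 0.20, edgeR adjusted p = 4.11e-05). Its neighbour Tubb2a (34074301 to 34078008) on the same strand had 10.6, 10.7 and 11.5 CPM in WT and 23.99, 15.6 and 23.5 CPM in mKO, a rise of 1.93-fold (log2 0.95, SE 0.16, edgeR adjusted p = 0.000629). Summed to 1 row to remove the split of reads shared between them, Tubb2a and Tubb2b rose by a log2 of 1.15 (SE 0.15, edgeR adjusted p = 0.000106).

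Tubb5 (chromosome 17, 35833921 to 35838306), a widely expressed beta isotype abundant in dividing cells, had 33.9, 42.5 and 33.5 CPM in WT and 73.1, 53.1 and 75.3 CPM in mKO. The groups did not overlap, and the rise was 1.83-fold (log2 0.87, SE 0.15, edgeR adjusted p = 0.000587). Tubb4b (chromosome 2, 25222160 to 25224702), the leading beta isotype, gave no call. It had 180, 253 and 186 CPM in WT and 292, 227 and 270 CPM in mKO, so that WT replicate 2 lay above mKO replicate 2. The difference missed the threshold (edgeR log2 0.35, SE 0.15, adjusted p = 0.0805). It did pass without WT replicate 2 (log2 0.52, edgeR adjusted p = 0.00689), without mKO replicate 2 (log2 0.45, edgeR adjusted p = 0.0446) and with library totals (log2 0.82). Without the low-count filter it passed with the log2 value still at 0.35 (edgeR adjusted p = 0.0273). With any other library left out it did not pass (edgeR adjusted p 0.186 to 0.260). Nor did it pass in the fit blocked on replicate number (edgeR adjusted p = 0.128) or with DESeq2 (adjusted p = 0.0619).

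In the alpha family Tuba1b and Tuba1c were called higher, and Tuba1a, Tuba4a and Tuba8 were not called. Tuba1c (chromosome 15, 99029891 to 99038105), the scarcest, had 2.14, 1.35 and 1.71 CPM in WT and 10.1, 6.80 and 10.3 CPM in mKO, a rise of 5.25-fold (log2 2.39, SE 0.23, edgeR adjusted p = 8.03e-06). Its fold change was the largest of the 10 members. Tuba1b (98931425 to 98934565), a ubiquitous isotype, had 16.0, 16.8 and 13.6 CPM in WT and 23.3, 22.0 and 26.9 CPM in mKO, without overlap (log2 0.64, SE 0.13, edgeR adjusted p = 0.00194). Tuba1a (98949841 to 98953551), an isotype of neurons and developing tissue, had 42.2, 41.2 and 40.7 CPM in WT and 58.4, 39.7 and 62.0 CPM in mKO. Here mKO replicate 2 lay below all WT libraries, and the difference missed the threshold (edgeR log2 0.37, SE 0.15, adjusted p = 0.0698). It passed without that library (log2 0.55, edgeR adjusted p = 0.00322) and with library totals (log2 0.83). Without the low-count filter it passed with the log2 value still at 0.37 (edgeR adjusted p = 0.0223). With any other library left out it did not pass (edgeR adjusted p 0.111 to 0.281). Nor did it pass in the fit blocked on replicate number (edgeR adjusted p = 0.0971) or with DESeq2 (adjusted p = 0.0680). Summed, Tuba1a, Tuba1b and Tuba1c rose by a log2 of 0.56 (SE 0.14, edgeR adjusted p = 0.00585).

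Both muscle-abundant alpha members gave no call. Tuba4a (chromosome 1, 75214228 to 75219865) had 350, 439 and 369 CPM in WT and 352, 336 and 358 CPM in mKO. WT replicate 2 was the highest library and the rest lay close together (log2 -0.15, SE 0.12, edgeR adjusted p = 0.353). Tuba8 (chromosome 6, 121210696 to 121226854) had 57.4, 94.9 and 51.2 CPM in WT and 60.5, 49.8 and 66.2 CPM in mKO, again with WT replicate 2 apart (log2 -0.21, SE 0.20, edgeR adjusted p = 0.449). Without that library the sign for Tuba8 turned (log2 0.11, edgeR adjusted p = 0.544), and the log2 value of Tuba4a was -0.05 (edgeR adjusted p = 0.745). With library totals both turned positive, and Tuba4a was then called (log2 0.32, edgeR adjusted p = 0.0322) while Tuba8 was not (log2 0.26, edgeR adjusted p = 0.278). The direction of both therefore rested on the scaling, and these data do not show them to be unchanged.

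**Figure D2:**
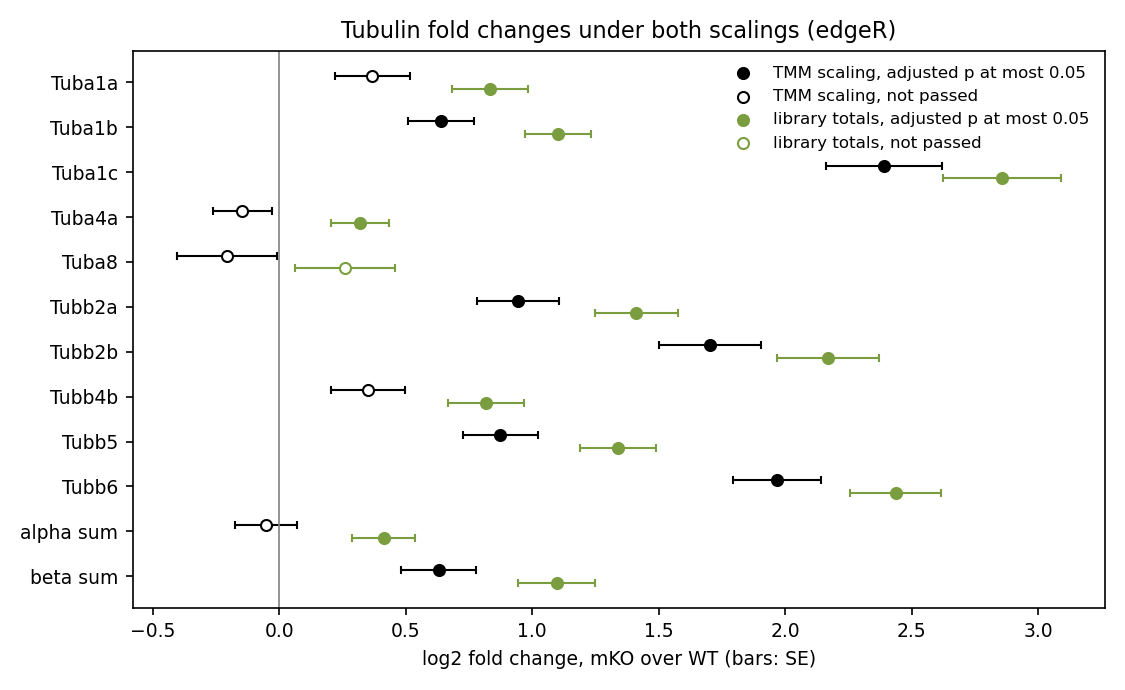
Log2 fold change (mKO over WT) of each member and of the summed alpha and beta members from edgeR, with its SE, under TMM scaling (black) and library totals (green); filled points have an adjusted p of at most 0.05. Tuba4a, Tuba8 and the alpha sum lie below 0 with TMM and above 0 with library totals, while the 6 called members lie above 0 in both.

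Because shares within a library do not depend on library scaling, the makeup of each family was compared as shares of counts per kilobase. Tubb4b, the leading beta isotype, held 77.2, 79.1 and 76.6% of beta tubulin in WT and 62.6, 65.6 and 62.5% in mKO, a drop from 77.6 ± 1.26% to 63.5 ± 1.75% (SD, n = 3). The difference was -14.1 percentage points for Tubb4b and 10.3 for Tubb6, which had 6.55, 7.04 and 7.04% in WT against 18.4, 16.4 and 16.7% in mKO (6.88 ± 0.283% to 17.2 ± 1.06%). The share of Tubb2b went from 1.23 ± 0.191% to 2.55 ± 0.171% and that of Tubb5 from 8.72 ± 0.410% to 10.1 ± 0.694%. Groups did not overlap for these 4 shares, with an exact permutation p (two-sided) of 0.1 for each. That is the lowest value a design of 3 against 3 allows, so no share could pass 0.05. The share of Tubb2a overlapped (5.54 ± 0.985% and 6.63 ± 0.605%, exact permutation p = 0.3).

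In the alpha family Tuba4a remained the leading share. It held 60.9, 60.8 and 64.3% of alpha tubulin in WT and 54.4, 59.7 and 52.8% in mKO. The groups did not overlap, but mKO replicate 2 came within about 1 percentage point of the lowest WT library. Tuba1b went from 4.91 ± 0.499% to 7.55 ± 0.395% and Tuba1c from 0.534 ± 0.175% to 2.68 ± 0.363%, also without overlap (exact two-sided permutation p = 0.1 for each of the 3). Tuba1a (15.1 ± 1.98% and 18.9 ± 2.63%, exact permutation p = 0.3) and Tuba8 (17.5 ± 3.59% and 15.2 ± 0.742%, exact permutation p = 0.4) overlapped. The Tuba1 trio together held 20.5 ± 2.53% in WT and 29.1 ± 2.88% in mKO (exact permutation p = 0.1). This compares 10 shares and the sums drawn from them, with no adjusted p below 0.1 possible.

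**Figure D3:**
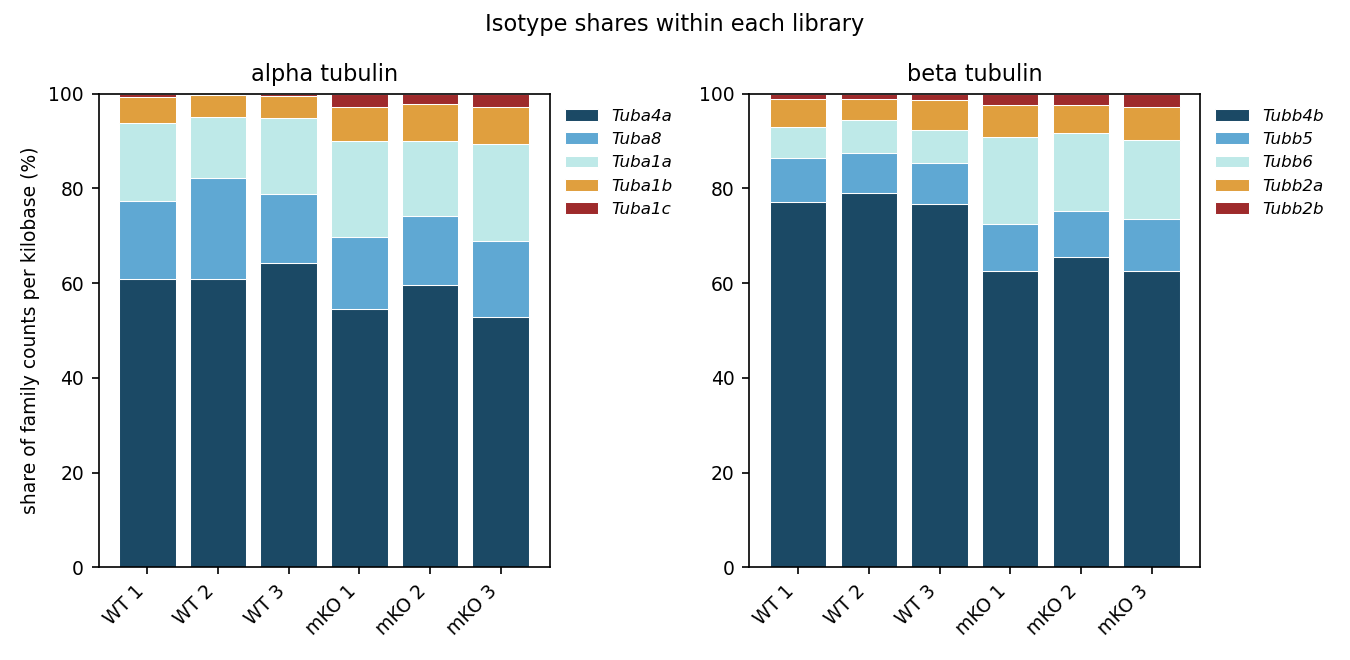
Share (%) of each isotype in the summed counts per kilobase of its family, 1 bar per library. The Tubb4b block falls from 76.6 to 79.1% in WT to 62.5 to 65.6% in mKO while the Tubb6 block widens; the Tuba4a block goes from 60.8 to 64.3% in WT to 52.8 to 59.7% in mKO.

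Summed over the family, beta tubulin rose and alpha tubulin did not pass. The 5 beta members together had 239, 328 and 249 CPM in WT and 473, 351 and 441 CPM in mKO (log2 0.63, SE 0.15, edgeR adjusted p = 0.00516). The 5 alpha members together had 468, 593 and 476 CPM in WT and 505, 454 and 523 CPM in mKO (log2 -0.05, SE 0.12, edgeR adjusted p = 0.776, and 0.41 with library totals, edgeR adjusted p = 0.0127). The ratio of beta to alpha counts per kilobase, which scaling cannot move, was 0.718, 0.784 and 0.751 in WT and 1.28, 1.09 and 1.13 in mKO. It rose from 0.751 ± 0.0330 to 1.17 ± 0.101 (SD, n = 3), 1.55-fold, with no overlap and an exact two-sided permutation p of 0.1. Its absolute value depends on the exon lengths used and on how reads in the overlap of Tuba4a with Stk16 were counted. All 10 members together had 707 to 922 CPM in WT and 805 to 977 CPM in mKO, which overlap. As a share of all counts, which is the scaling by library totals, they made up 0.0607 to 0.0782% in WT and 0.0941 to 0.117% in mKO, without overlap.

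Of the remaining alpha and beta tubulin genes, Tuba3a, Tuba3b and Tubal3 had 0 counts in all 6 libraries. Tubb3, the neuronal beta isotype, rose from 28 counts summed over WT to 118 over mKO (0.284 ± 0.0518 to 0.916 ± 0.242 CPM, log2 1.68, SE 0.42, edgeR adjusted p = 0.00693). Tubb4a had 0.875 ± 0.274 and 0.847 ± 0.239 CPM (edgeR adjusted p = 0.945), and Tubb1, the platelet isotype, 14 and 8 counts in all. Of the gamma, delta and epsilon tubulins, which belong to centrosomes and centrioles, Tubd1 fell (9.99 to 7.38 CPM, log2 -0.44, edgeR adjusted p = 0.0327) with TMM scaling but not with library totals. Tubg1 had 10.6, 25.3 and 11.4 CPM in WT and 14.8, 12.2 and 12.9 in mKO, with WT replicate 2 apart as for Tuba8 (edgeR adjusted p = 0.506). Tubg2 (edgeR adjusted p = 0.216) and Tube1 (0.54) did not pass.

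Genes that fold, modify and bind tubulin moved in both directions. Of 21 genes of tubulin folding (the chaperonin CCT, prefoldin and the tubulin cofactors), 4 rose and 4 fell, a called share of 38.1% beside 37.0% for all tested genes, with a median log2 fold change of 0.01. Cct2, a chaperonin subunit, rose from 141 to 188 CPM (log2 0.41, edgeR adjusted p = 0.00671), and the cofactor gene Tbcc from 4.56 to 8.98 CPM (log2 0.97, edgeR adjusted p = 0.00298). Arl2, a small GTPase that works with the cofactors, fell from 24.5 to 13.4 CPM (log2 -0.87, edgeR adjusted p = 0.000675). Of 3 genes of the mRNA feedback (Ttc5, Scaper, Cnot11), Scaper, an adaptor that links Ttc5 to the deadenylase complex, fell from 39.7 to 24.9 CPM (log2 -0.67, edgeR adjusted p = 0.00134), a call lost with library totals (adjusted p = 0.172), and the others did not pass. With library totals 13 of the folding genes were higher and 1 lower. Over all 16650 tested genes that scaling called 8159 higher and 1124 lower.

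Among tubulin-modifying enzymes the abundant Ttll7 fell. Of 18 tested, 3 rose and 4 fell (38.9% called, beside 37.0% of all tested genes). With library totals 9 were higher and 2 lower, beside 8159 and 1124 of all 16650 tested genes. Ttll7, a ligase that adds glutamates mainly to beta tubulin tails, had 648, 514 and 807 CPM in WT and 191, 208 and 186 CPM in mKO, 3.37-fold lower (log2 -1.75, SE 0.15, edgeR adjusted p = 4.08e-06). It was the most abundant of this list, and its groups were far apart. Agtpbp1, a carboxypeptidase that trims glutamates, fell from 134 to 80.5 CPM (log2 -0.74, edgeR adjusted p = 0.000159). Ttll11, another glutamate ligase, rose from 1.51 to 4.81 CPM (log2 1.67, edgeR adjusted p = 0.000182). The other calls were rises of Vash2 and Ttll12 and falls of Ttl and Sirt2.

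Microtubule-binding genes included several rises. Of 26 tested structural and end-binding genes, 10 rose and 5 fell (57.7% called, beside 37.0% of all tested genes). Their median log2 fold change was 0.16. With library totals 19 were higher and 3 lower, beside 8159 and 1124 of all 16650 tested genes. Map1a rose from 9.09 to 33.1 CPM (log2 1.86, edgeR adjusted p = 2.51e-06) and Map1b, a microtubule-associated protein of growing axons, from 23.4 to 59.2 CPM (log2 1.34, edgeR adjusted p = 4.93e-06). Stmn1, stathmin, which sequesters tubulin dimers, rose from 1.63 to 4.53 CPM (log2 1.47, edgeR adjusted p = 0.000192). Of 24 genes of nucleation and anchoring, 4 rose and 4 fell (33.3% called; 13 and 1 with library totals): Mzt1, a small subunit of gamma-tubulin complexes, fell from 54.9 to 32.1 CPM (log2 -0.77, edgeR adjusted p = 0.000109), Nin, ninein, from 58.7 to 39.6 CPM (log2 -0.57, edgeR adjusted p = 0.00147), and Haus3 of the augmin complex rose from 8.62 to 13.4 CPM (log2 0.64, edgeR adjusted p = 0.00384). The call for Nin was lost with library totals (edgeR adjusted p = 0.446).

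Severing enzymes and motors completed the pathway. Of 9 severing genes, 2 rose and 1 fell (33.3% called, beside 37.0% of all tested genes). With library totals 3 were higher and 1 lower, beside 8159 and 1124 of all 16650 tested genes. Spast, spastin, fell from 93.6 to 55.8 CPM (log2 -0.74, edgeR adjusted p = 0.000245), while Katnal2 rose from 0.786 to 4.79 CPM (edgeR adjusted p = 8.68e-05) and Fignl1 from 0.561 to 1.61 CPM (0.00633). Of 16 interphase motor genes, 5 rose and 1 fell (37.5% called; 13 and 0 with library totals). Dync1h1, the dynein heavy chain, rose from 230 to 354 CPM (log2 0.62, edgeR adjusted p = 0.00322) and Klc1, a kinesin light chain, from 55.9 to 74.1 CPM (log2 0.40, edgeR adjusted p = 0.00836). Kif1c, a kinesin, fell from 362 to 215 CPM (log2 -0.75, edgeR adjusted p = 0.000585), with no call with library totals (edgeR adjusted p = 0.0804).

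Markers of cell types and fibre states moved in different directions. The counts below stand beside 37.0% of all tested genes called, 18.2% higher and 18.9% lower. In bulk muscle, more cells of a type and more RNA per cell cannot be told apart. All 10 macrophage markers rose, and their summed level was 283 to 342 CPM in WT and 591 to 989 CPM in mKO. All 7 markers of dividing cells rose (5.43 to 6.65 against 38.8 to 47.9 CPM), as did all 7 of immature or regenerating fibres (49.8 to 64.0 against 356 to 489 CPM). Within mKO, replicate 2 was the lowest library for each of these 3 sums and also for all 10 tubulin members. That library was also the lowest for the fibroblast, Schwann and satellite cell sums, but not for the endothelial or the pericyte and smooth muscle sums. For the muscle fibre sum it was the highest of the mKO libraries (165223, 197066 and 189998 CPM). All 8 endothelial markers fell (273 to 358 against 167 to 183 CPM; 3 fell with library totals), and 7 Schwann cell markers gave no call (22.3 to 32.0 against 12.7 to 42.8 CPM). None of these lists had a marker at 0 counts. Of 8 fibroblast markers 2 rose, of 6 satellite cell markers 1 rose and 1 fell, and of 6 pericyte and smooth muscle markers 1 rose and 2 fell, with a summed level of 663 to 725 CPM in WT and 357 to 392 CPM in mKO. With library totals 6 fibroblast markers were higher, 2 satellite cell markers were higher and none lower, and 2 pericyte and smooth muscle markers were higher and 1 lower. Under that scaling 8159 of all 16650 tested genes were higher and 1124 lower. The muscle fibre markers remained by far the highest sum (264845 to 287328 against 165223 to 197066 CPM), with Acta1, Ckm, Mb, Myh4, Myh2 and Pvalb lower, Des higher and Ttn, Myh1 and Myh7 not called. With library totals 5 of the fibre markers were lower and 1 higher. The part of these cells in the tubulin differences was not tested.

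**Figure D4:**
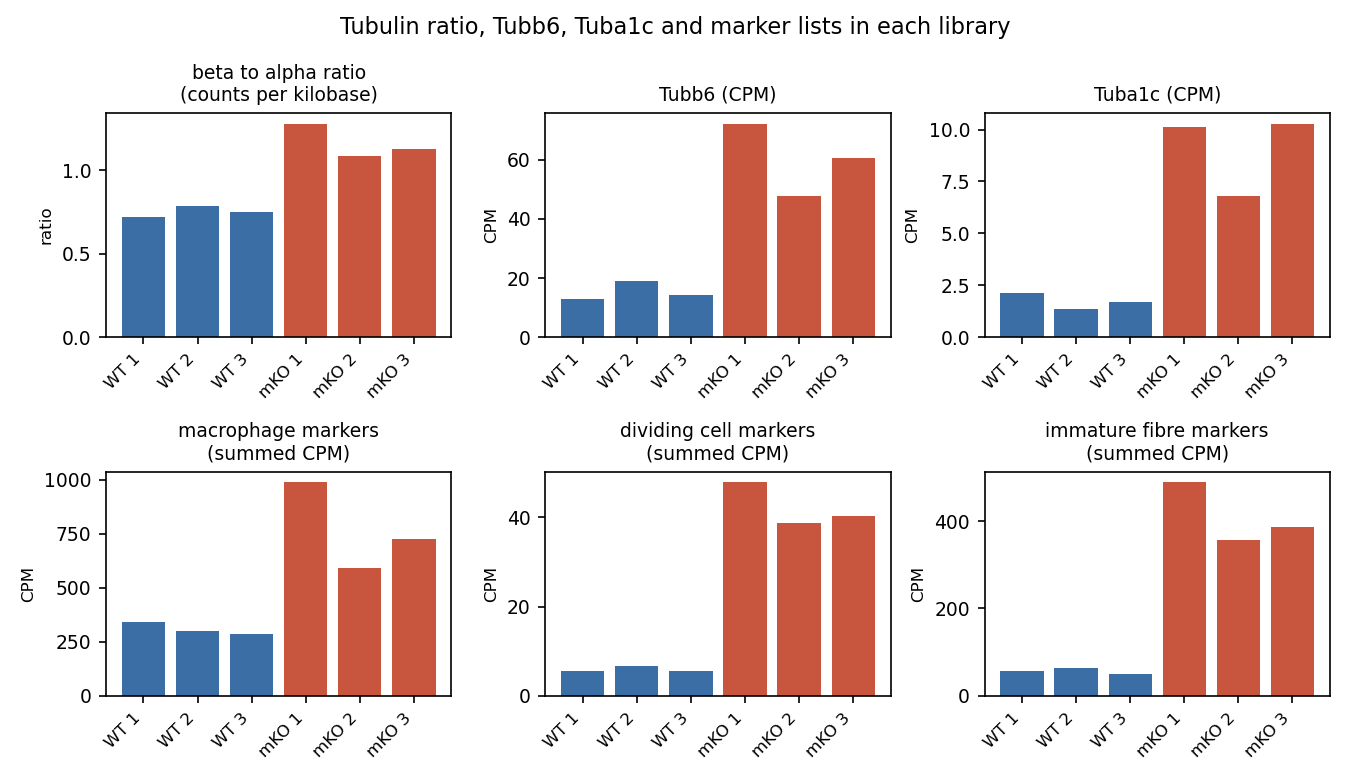
Beta to alpha ratio, Tubb6, Tuba1c and the summed CPM of 3 marker lists in each library (bars from 0; blue WT, red mKO). All mKO bars stand above all WT bars in the 6 panels, and mKO replicate 2 is the lowest mKO bar in each.

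Profiles over the 6 libraries were compared among 13236 genes with a mean of at least 1 CPM. The measure was the root mean square distance of log2 CPM values centred over all 6 libraries. A constant was added to each CPM before the log, which shrinks differences at low levels. Since both groups were centred together, a small distance reflects a similar difference between groups as well as similar variation within them. The genes nearest to Tubb6 were Ms4a7 (distance 0.116), Col8a1 (0.122), Tmsb10 (0.139), Itgb2 (0.142) and Tnfrsf12a (0.143). Ms4a7 and Itgb2 are leukocyte genes, Col8a1 encodes a collagen, Tmsb10 an actin-sequestering thymosin, and Tnfrsf12a the TWEAK receptor of injured muscle. Tnfrsf12a had the highest level of these, 25.4 CPM in WT and 91.9 CPM in mKO, and Ms4a7 the lowest in WT, 1.11 against 5.87 CPM. The edgeR log2 fold change of Ms4a7 was 2.40, against 1.97 for Tubb6, so its first place rests in part on the added constant. Whether these genes vary together within a group was not tested. Those near to Tuba4a included Mrpl43 (0.0315), Plpbp (0.0346), Lrrc14b (0.0384) and Recql (0.0418), none of which passed the test.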

How the data were processed

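Raw counts per gene were deposited by the authors, 1 table per library, in whole numbers; per the file headers they are sums over the listed exons of each Ensembl gene. The submitters' processing notes name Trimmomatic 0.36, STAR 2.5.2b, featureCounts of Subread 1.5.2 and GRCm38. Strand setting, pair counting and handling of shared reads are not stated. Groups came from the sample titles.

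From the counts, edgeR 4.0.16 (R 4.3.3; TMM, default expression filter, quasi-likelihood test, group as the only term) was fitted to all genes and adjusted by Benjamini-Hochberg at 0.05; DESeq2 1.42.0 was an alternative. The steps were checked on simulated counts. SE is the log2 fold change divided by the root of the F statistic. CPM per kilobase divides by the exon length in the tables. Shares and ratios were compared with exact two-sided permutation tests (scipy 1.17.1). Coding sequences and shared windows came from GENCODE M21 (GRCm38). Replicates differed beyond sampling noise (chi-square per degree of freedom 20.9 to 57.7).

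The members and lists were chosen with earlier results of these data known. Named genes are the members, Hnrnpu, the other tubulin genes, the 3 lowest p-values among the called genes of each pathway list, and the 5 nearest profiles to Tubb6 and to Tuba4a; Stk16, the Tubb4b pseudogenes and all other named genes were added after their values were seen. Protein sequences were not used here, and some coding ends and 1 nearest profile are not reported here.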

Additional observations from a re-analysis of the deposited data

How the results depend on the processing

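Scaling by library totals, without TMM, moved the count of called genes from 6166 to 9283 (8159 higher, 1124 lower), so 87.9% of calls were higher against 49.0%, and 9 of the 10 members were called higher. Under that scaling the log2 fold change turned to 0.32 for Tuba4a, 0.26 for Tuba8 and 0.41 for the alpha sum, by the upward shift of all values. Leaving out 1 library gave -0.12 to 0.062 for the alpha sum, -0.38 to 0.11 for Tuba8 and 4766 to 6255 called genes; both upper log2 values are without WT replicate 2, and the alpha sum was 0.011 without mKO replicate 2. DESeq2 called 6027 genes and the same 6 members. Tuba1a and Tubb4b were near the threshold: 8 members were called without the low-count filter and without mKO replicate 2, and 7 without WT replicate 2. With any other library left out, 6 were called. Without the low-count filter the log2 values of the members hardly moved, but p-values fell far. For Tubb6 the edgeR adjusted p went from 4.31e-06 to 2.83e-45, with an SE of 0.17 and 0.14. The calls of Tuba1a and Tubb4b in that fit rest on smaller p-values, not on larger differences. In shares of raw counts, which weight long genes more, the difference was 1.83 percentage points for Tuba1b, 1.48 for Tuba1c, 2.37 for Tubb5 and 8.59 for Tubb6. No value turned sign in that setting or over all alpha and beta tubulin genes. Libraries with the same replicate number showed no shared deviations from their group means (correlations -0.01, -0.02 and 0.04). This does not tell whether the samples were paired in their preparation. With the replicate numbers as a block, 5519 genes and the same 6 members were called, and the beta sum was 0.64. Depth was lowest for Tuba1c, with 44 to 64 counts per WT library; 3 libraries per group and reads shared between near-identical copies limit the other members too. The cause of the changes with setting was not tested.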
